A study of Mus musculus with 4 samples.

Results

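The natriuretic peptide receptor genes Npr1, Npr2 and Npr3 were followed through nuclei of mouse inguinal white fat, a pad that lies under the skin of the groin. The members are the 3 rows of the deposited matrices that carry these symbols, out of 53715 genes. They were selected on measured values, the difference of Npr3 between the library labels over all nuclei and in adipocytes, so that contrast is given below as a description without a test. The sum over all nuclei includes the other classes, so their Npr3 tests are not independent of this choice. Natriuretic peptides are hormones of the heart and vessel wall. Npr1 encodes the guanylyl cyclase receptor for the atrial and B-type peptides, and Npr2 the guanylyl cyclase receptor for the C-type peptide; both make cyclic GMP when a peptide binds. Npr3 encodes the clearance receptor, which has no cyclase domain, takes peptides into the cell for breakdown and can act through inhibitory G proteins. In fat, cyclic GMP made by Npr1 activates its kinase and promotes lipolysis, and the balance of Npr3 to Npr1 is known as a measure of how strongly fat can respond to these peptides.

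Single-nucleus RNA sequencing was made from C57BL/6N mice aged 6 months, with 2 libraries labelled WT and 2 labelled PTRF KO, each titled for a separate mouse. The caveola coat protein cavin-1, encoded by Cavin1, was formerly called PTRF. The study's title names a distal enhancer of Ptrf, and the sources used here do not say which part of the gene or of its surroundings was removed, or in which cells. Cavin1 goes against the labels: its summed UMIs (unique molecular identifiers, counted transcript molecules) were 40 and 9 in the libraries labelled WT 1 and WT 2, and 730 and 1759 in those labelled PTRF KO 1 and PTRF KO 2. The names of the deposited files also carry the opposite genotype. Groups are therefore named by label throughout, and higher or lower is always read from labels that go against Cavin1: the libraries labelled PTRF KO are the ones rich in it. Lists of 4 values run in the order WT 1, WT 2, PTRF KO 1, PTRF KO 2.

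After filtering, 50067 nuclei remained, between 6664 and 15887 per library, with median UMIs per nucleus from 844.5 to 1401. Library pairs shared between 53 and 150 cell barcodes. Clustering gave 18 clusters, 14 of which were named by markers and 4 kept by number. Of the resulting classes, 12 had at least 50 nuclei in every library and were compared; the class names rest on marker genes only. Cells of a mammary gland lie in this fat pad, and luminal, lymphoid and adipocyte classes were all present. Levels are in CPM, the usual scaling of a gene's UMIs to a common total, taken over all UMIs of that class in that library. They are not adjusted for gene length, so they are compared between classes and libraries and not between the 3 genes. No receptor gene was among the 2000 variable genes used for clustering.

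In the files' build (GRCm38, annotation GENCODE M21), Npr1 (ENSMUSG00000027931) spans chr3:90450591-90465866 on the minus strand, Npr2 (ENSMUSG00000028469) chr4:43631935-43651244 on the plus strand and Npr3 (ENSMUSG00000022206) chr15:11839896-11907287 on the minus strand. Introns make up 68.7%, 75.8% and 86.1% of these spans, which matters because nuclear RNA is rich in unspliced transcripts. Npr1 is overlapped by the antisense gene Gm16048 over 5513 bases and Npr2 by the antisense gene Gm12473 over 9599 bases. The sources used here do not say whether the counting used strand, so the share of reads passing between these pairs is unknown. The antisense genes gave far fewer UMIs, 33, 14, 23 and 54 for Gm16048 and 69, 38, 53 and 100 for Gm12473. The start of Npr3 lies beside the divergent transcript Gm5144, which is not among the symbols of the files.

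The 250 bases before the RefSeq start of Npr1 and of Npr3 (GRCm38.p6) are printed to show how different the start regions of the cyclase receptor and the clearance receptor are; all 3 receptors matched an entry in RefSeq's promoter windows. Npr1 is read on the minus strand at chr3:90465867-90466116 and Npr3 on the minus strand at chr15:11907372-11907621. Capitals mark GC boxes (GGGCGG on either strand, which here reads CCGCCC).
Npr1: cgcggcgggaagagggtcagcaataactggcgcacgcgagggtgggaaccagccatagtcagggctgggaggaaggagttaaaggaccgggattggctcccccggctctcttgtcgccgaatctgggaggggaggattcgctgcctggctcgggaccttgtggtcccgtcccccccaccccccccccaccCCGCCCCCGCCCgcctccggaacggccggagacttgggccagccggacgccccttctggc
Npr3: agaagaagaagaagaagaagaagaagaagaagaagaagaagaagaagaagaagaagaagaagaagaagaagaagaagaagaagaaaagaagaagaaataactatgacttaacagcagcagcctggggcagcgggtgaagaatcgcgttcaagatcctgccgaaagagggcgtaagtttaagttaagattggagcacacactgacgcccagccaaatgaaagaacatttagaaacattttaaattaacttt
The Npr1 window has 70.4% G or C and 21 CpG dinucleotides, and 2 adjoining GC boxes close to the start. The Npr3 window has 38.8% G or C and 6 CpG, opens with a long AGA repeat and holds no GC box. Over the 32851 windows of this length the medians are 52.4% and 6, and 32.7% of windows hold a GC box. The Npr2 window at chr4:43631685-43631934 has 64.4% G or C, 13 CpG and no GC box. The short form of the cAMP response element (TGACG on either strand) occurs 1 time in the Npr3 window, and 17.8% of all windows hold it. A TATA box (TATAAA) and the full cAMP response element (TGACGTCA), which holds the short form, were searched on both strands and were absent from these letters in each of the 3 windows. Of all windows, 12.4% hold the first and 1.55% the second.

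Npr1 was highest in interstitial progenitor-like nuclei, the Pi16- and Dpp4-bearing stromal cells of fat, and next in blood endothelial-like nuclei. Its CPM in interstitial progenitors was 141, 122, 79.6 and 129, a mean of 118 ± 26.7 (SD, n = 4 libraries), on 95, 47, 7 and 146 UMIs; the lowest value comes from 87 nuclei in the library labelled PTRF KO 1, against 218 to 523 elsewhere. Endothelial nuclei stood at 64.3, 83.3, 61.2 and 58.5 CPM, a mean of 66.8 ± 11.3. The ranges of these 2 classes overlapped, and the interstitial range lay above that of the 10 remaining classes. Progenitor or fibroblast-like nuclei followed at 42.2 ± 6.23 CPM, below the endothelial range. Dendritic-like nuclei (37.2 ± 24.6, from 12.5 to 70.3) and cluster 12 (28.6 ± 12.5), which is led by the contractile genes Myh11 and Acta2 and was left unnamed because smooth muscle and myoepithelial markers were mixed, overlapped with their neighbours. The other 7 classes had means between 4.66 and 14.9 CPM. Adipocyte-like nuclei were among them, at 12, 19.3, 4.56 and 4.31 CPM, with the T or NK-like nuclei of the same libraries at 10.2, 15.5, 7.77 and 5.44. Of all 1388 Npr1 UMIs, interstitial progenitors held 21.3%, progenitors 15.4%, cluster 12 11.6% and adipocytes 11.5%, while adipocytes held 25.8% of the UMIs of all genes.

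Cells with at least 1 Npr1 UMI were also counted after each nucleus was thinned to 1000 UMIs, which leaves out shallower nuclei and removes differences in depth. In interstitial progenitors 12.5%, 10.5%, 6.67% and 11.9% of nuclei then carried Npr1, the third value resting on 30 nuclei (Wilson 95% interval 1.85% to 21.3%). Unthinned shares were 14%, 14.2%, 5.75% and 21.2%. In adipocytes the thinned shares were 0.899%, 1.53%, 0.418% and 0.366%, against 0.643%, 0%, 0.478% and 0.533% in T or NK-like nuclei. T or NK-like nuclei are a lymphoid class not known for this gene. Their intervals in PTRF KO 1 and PTRF KO 2 (0.0845% to 2.66% and 0.280% to 1.01%) held the adipocyte shares. In WT 1 the adipocyte interval (0.589% to 1.37%) held the T or NK-like share, and in WT 2 the T or NK-like share, with no nucleus of 174 carrying a UMI, allows up to 2.16%. Whether the adipocyte UMIs are background was not tested. At this depth Npr1 in adipocytes was not distinguishable from the level in lymphoid nuclei.

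Npr2 was spread more evenly over vessel, fat and stroma. Blood endothelial-like nuclei stood at 40.9, 20.8, 67.3 and 43.4 CPM (mean 43.1 ± 19), on 14, 3, 11 and 23 UMIs. Adipocytes stood at 26.9, 31.2, 57.9 and 37.3 (mean 38.3 ± 13.7), on 161, 50, 165 and 372 UMIs. Interstitial progenitors (34.5 ± 12.5) and cluster 12 (32.0 ± 7.52) were next, and no neighbouring classes in the order were separated by their ranges. The lowest class was macrophage-like, at 5.05 ± 4.29 CPM, and the endothelial range lay above 5 of the 11 other classes. Adipocytes held 47.6% of the 1571 Npr2 UMIs. Thinned to 1000 UMIs, 2.31%, 2.78%, 4.95% and 3.04% of adipocyte nuclei carried Npr2, against 0%, 1.15%, 0% and 0.355% of T or NK-like nuclei.

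Among the 12 compared classes, Npr3 was highest in adipocytes in both libraries labelled PTRF KO and in WT 2. Its adipocyte CPM was 35.4, 92.9, 271 and 434 (mean 208 ± 181, n = 4), and adipocytes held 63.1%, 56.0%, 68.7% and 80.5% of each library's Npr3 UMIs. In WT 1 the endothelial value was above the adipocyte value. The adipocyte range lay above only 4 of the 11 other classes, since values of other classes in libraries labelled PTRF KO, and in WT 1 that of endothelium, exceeded the 35.4 CPM of WT 1. Endothelial nuclei stood at 52.6, 27.8, 91.8 and 96.2 CPM (mean 67.1 ± 32.7), on 18, 4, 15 and 51 UMIs. Cluster 1, the largest cluster, with a median of 693 UMIs per nucleus and 0 markers of any class that reached the naming rule, stood at 50.5 ± 25.5. The other 9 classes had means between 10.3 and 28.3 CPM, T or NK-like nuclei among them at 8.91, 15.5, 25.3 and 38.6. Interstitial progenitors, the highest class for Npr1, had Npr3 at 4.45, 15.6, 45.5 and 47.7 CPM on 3, 6, 4 and 54 UMIs. In cluster 12 the library labelled WT 2 had no Npr3 UMI, which allows up to 7.25 CPM.

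**Figure D1:**
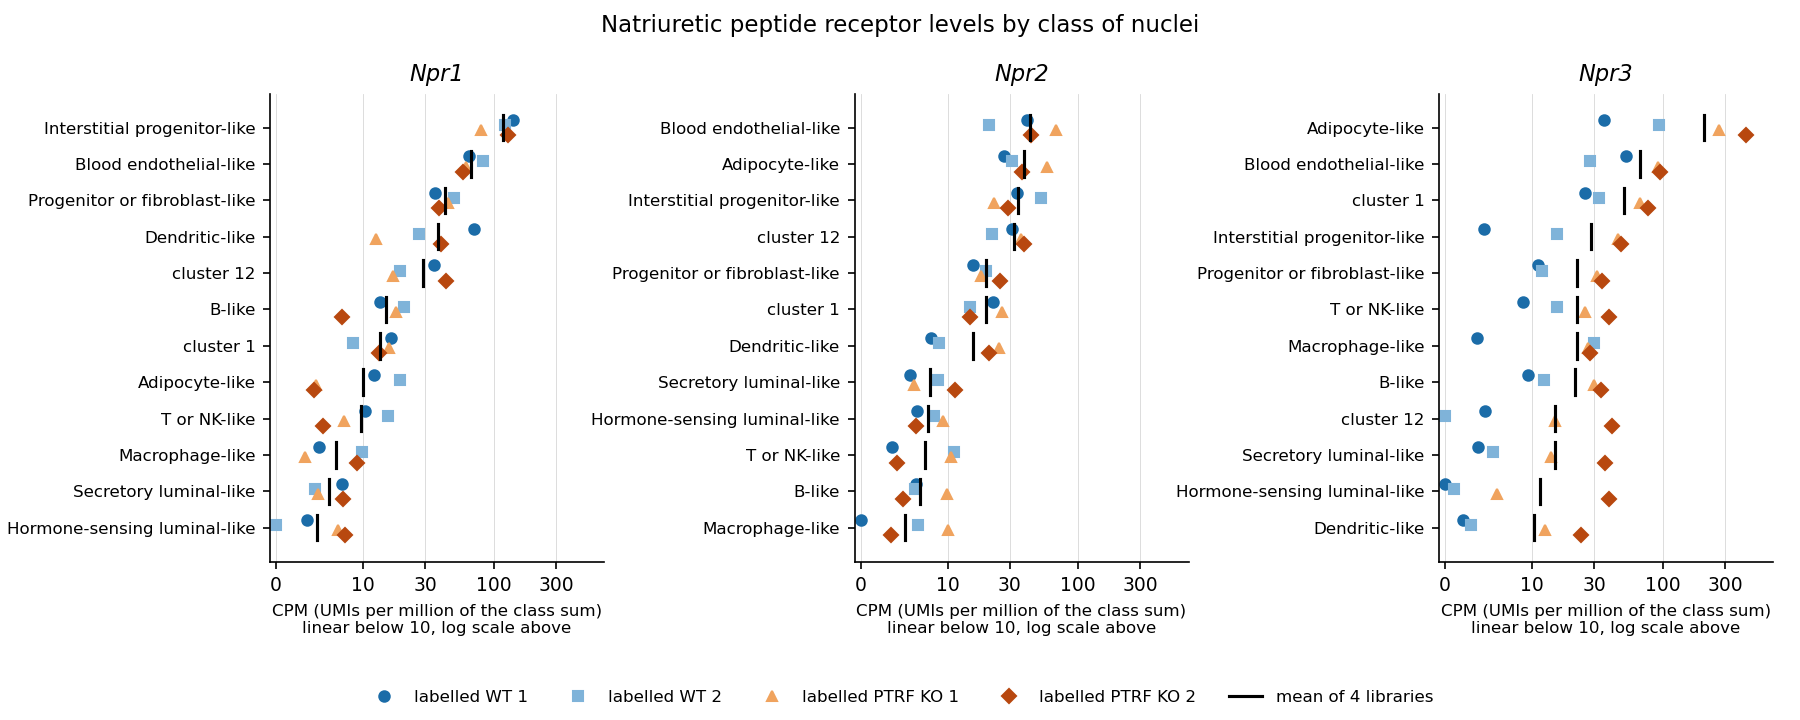
CPM of Npr1, Npr2 and Npr3 (x axis, linear below 10 and logarithmic above) in the 12 compared classes of nuclei, 1 symbol per library and a bar at the mean of 4 libraries, with classes ordered by that mean in each panel. Npr1 is led by interstitial progenitors (79.6 to 141 CPM) and Npr3 by adipocytes (35.4 to 434 CPM), where the blue symbols of the libraries labelled WT lie to the left of the orange ones.

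The endothelial class was mixed, and its receptors were not spread evenly within it. It held sub-clusters led by lymphatic genes (154 nuclei) and by pericyte genes (146 nuclei) beside the blood vessel nuclei, and another of 70 nuclei with 8 adipocyte and 6 progenitor markers among its leading genes. That one had the highest Npr3 of the class, 192 CPM on 23 of the 88 UMIs of the class, and held all 4 of the Npr3 UMIs of WT 2. Lymphatic nuclei numbered 88, 34, 5 and 27, and the lymphatic markers summed to 4395, 2201, 337 and 947 CPM, so the make-up of the class differed between the labels; the part of this in its label differences was not tested. A sub-cluster of 69 nuclei marked by Selp and Vwf, genes of venous endothelium, had Npr1 at 168 CPM on 23 UMIs (exact Poisson 95% interval 107 to 252) and Npr3 at 21.9 CPM on 3 UMIs (4.53 to 64.1). A sub-cluster of 409 nuclei with the retinol-binding protein gene Rbp7 among its leading genes and 2 blood endothelial markers, too few for a name, had Npr3 at 113 CPM on 53 UMIs (84.3 to 147), of which 10, 0, 6 and 37 by library, and Npr1 at 65.8 on 31 (44.7 to 93.4). Lymphatic nuclei had Npr3 at 3.97 CPM on 1 UMI. These are sums over 4 libraries with intervals for counting error only, and the sub-clusters were not compared by a test.

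In adipocyte-like nuclei the libraries labelled PTRF KO had more Npr3, less Npr1 and somewhat more Npr2 than those labelled WT. Npr3 averaged 64.1 ± 40.7 CPM under WT and 353 ± 115 under PTRF KO (SD, n = 2 each), a log2 difference of 2.52 (SE 0.46). Npr1 averaged 15.7 ± 5.17 and 4.44 ± 0.18 CPM, a log2 difference of -1.79 (SE 0.55), and in T or NK-like nuclei the means of the same labels were 12.9 and 6.61 CPM. Npr2 averaged 29.0 ± 3.05 and 47.6 ± 14.6 CPM, a log2 difference of 0.66 (SE 0.40). The label groups did not overlap for any of the 3 genes, which is also true of 24.5% of the 17863 genes tested in adipocytes, and nothing is read from it here. Within each label the libraries also differed: Npr3 was higher in WT 2 than in WT 1 and higher in PTRF KO 2 than in PTRF KO 1, with counting intervals that did not meet (30.8 to 40.5 against 78.6 to 109 CPM, and 252 to 291 against 421 to 447). Over all nuclei the log2 differences were 2.48 (SE 0.48) for Npr3, 0.49 (SE 0.45) for Npr2 and -0.45 (SE 0.45) for Npr1. Without the library labelled PTRF KO 2, they were 1.72 for Npr3 and -0.93 for Npr1.

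The balance of clearance receptor to cyclase receptor moved with both genes. Adipocyte nuclei held 2.94 and 4.81 Npr3 UMIs for each Npr1 UMI in the libraries labelled WT, and 59.5 and 101 in those labelled PTRF KO. The ratio is of counts, not of length-adjusted levels, and is compared between libraries only. Its denominators in the libraries labelled PTRF KO were 13 and 43 UMIs, a level not distinguishable from that of T or NK-like nuclei, as given above. A higher ratio under PTRF KO was not particular to adipocytes. Over all nuclei it was 0.737, 1.52, 6.78 and 9.10. It was 0.308, 0.24, 0.7 and 0.9 in progenitors, 0.0316, 0.128, 0.571 and 0.370 in interstitial progenitors, and 0.818, 0.333, 1.5 and 1.65 in endothelial nuclei. Choosing adipocytes by a gate on marker UMIs in each nucleus instead of by cluster took in 17159 nuclei, of which 7676 were in the adipocyte clusters. The gate was uneven between libraries, with 4183, 1031, 2918 and 9027 nuclei, against 2901, 848, 1861 and 2486 by cluster. It gave ratios of 2.02, 4.12, 21.5 and 13.7. With that gate the log2 difference of Npr1 was -0.57, that of Npr2 0.36 and that of Npr3 1.80.

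**Figure D2:**
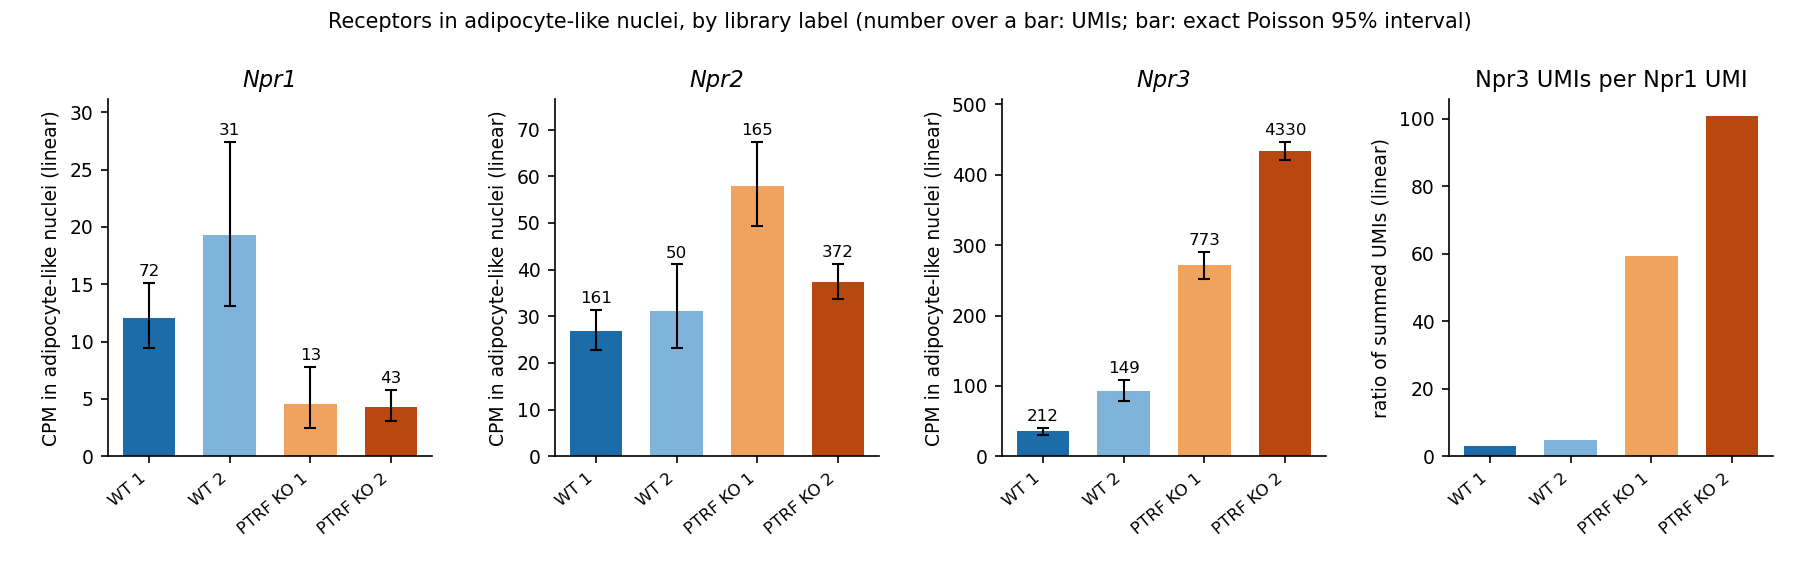
CPM of each receptor in adipocyte-like nuclei by library label (y axes linear from 0, bars with exact Poisson 95% intervals, UMIs printed above) and, at right, Npr3 UMIs per Npr1 UMI. Npr3 climbs from 35.4 CPM in WT 1 to 434 in PTRF KO 2, while Npr1 stays under 20 CPM in every library.

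Depth differed between the libraries, with median UMIs per adipocyte nucleus of 1693, 1587, 1369 and 3353, so Npr3 was read again at matched depth. Among nuclei of 500 to 1000 UMIs it stood at 33.2, 66.8, 192 and 215 CPM, and among nuclei of 2000 to 4000 UMIs at 40.4, 114, 335 and 411. Both libraries labelled PTRF KO were above both labelled WT in each of the 4 depth ranges, and the level rose at each step of depth in both libraries labelled PTRF KO. In WT 2 it was 57.1 CPM in the second range and 144 in the deepest, and in WT 1 it stayed between 28.5 and 40.4. Thinned to 1000 UMIs, 2.96%, 5.98%, 16.1% and 24.7% of adipocyte nuclei carried Npr3, against 0.965%, 1.15%, 1.44% and 2.72% of T or NK-like nuclei; unthinned adipocyte shares were 4.69%, 8.84%, 20.8% and 36.5%. Nuclei with 3 or more Npr3 UMIs made up 0.483%, 1.65%, 4.78% and 19.2% of adipocytes, and the fullest nucleus held 16, 8, 9 and 63. Npr1 did not keep its order: at 1000 to 2000 UMIs it stood at 11.3, 16.3, 3.96 and 15.1 CPM, so the labels overlapped there, on 19, 10, 6 and 6 UMIs.

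**Figure D3:**
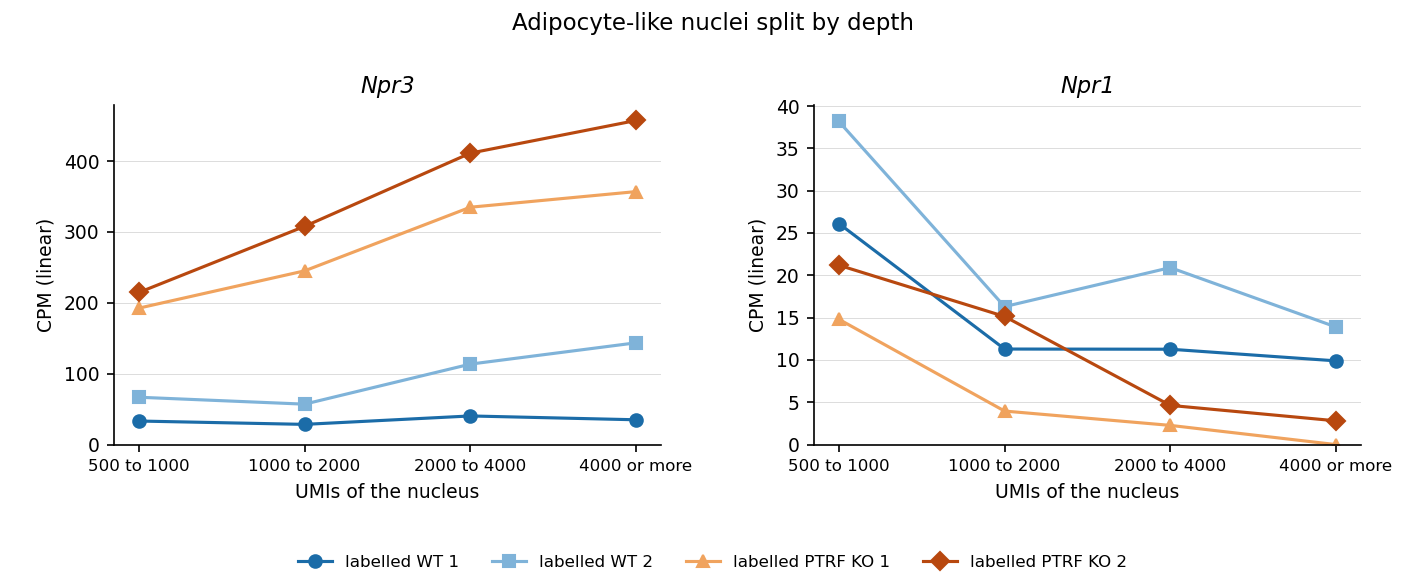
CPM of Npr3 (left) and Npr1 (right) in adipocyte-like nuclei split by the UMIs of the nucleus, with 1 line per library and linear axes from 0. The Npr3 lines of the libraries labelled PTRF KO lie above those labelled WT in each range, and the Npr1 lines cross at 1000 to 2000 UMIs.

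Adipocyte nuclei fell into sub-clusters that sat mostly in different libraries. Of 2283 nuclei in a sub-cluster led by Irf4 and Rgs2, 2019 came from WT 1, and of 1954 in a sub-cluster led by Glb1l2, Ncam2, Npr3 and Lep, 1556 came from PTRF KO 2. A sub-cluster of 3519 nuclei, with a median of 1145 UMIs, drew on all 4 libraries. It was led by Chl1, Gm10801 and Gm10800, with no listed marker among its leading genes against the other adipocyte sub-clusters. Chl1 and Cntnap2 were among the leading genes of both this sub-cluster and the unnamed cluster 1. Within this sub-cluster Npr3 stood at 33.4, 62.9, 258 and 223 CPM. In the sub-cluster led in part by Npr3 itself the values were 59.5, 140, 399 and 465. Within each of these 2 sub-clusters both libraries labelled PTRF KO were higher than both labelled WT. In the sub-cluster led by Irf4 and Rgs2 the values were 34.8, 132, 141 and 119 CPM on 170, 77, 4 and 8 UMIs, so that WT 1 stood apart there and the labels overlapped. Adipocyte marker RNA also differed between libraries: the 12 adipocyte markers, all detected in each library, summed to 29499, 19877, 24213 and 47116 CPM in adipocyte nuclei, and Adipoq, which encodes adiponectin, stood at 191, 130, 275 and 510. Set against it, there were 18.5, 71.3, 98.6 and 85.1 Npr3 UMIs for each 100 Adipoq UMIs, which puts WT 1 apart and leaves WT 2 below the libraries labelled PTRF KO by less than in CPM. Set against all 12 adipocyte markers there were 1.20, 4.67, 11.2 and 9.21 Npr3 UMIs for each 1000 marker UMIs, so both libraries labelled PTRF KO stayed above WT 2. The part of adipocyte marker RNA in the Npr3 difference was not tested. Sums over a class do not separate fewer nuclei with the transcript from less RNA per nucleus. The thinned shares above remove differences in depth only and do not separate the 2 either.

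Outside adipocytes, 25 tests of a receptor in a class passed the filter on low counts. The quasi-likelihood test of edgeR with Benjamini-Hochberg adjustment called 0 of them at an adjusted p of 0.05. Of the 25, 8 had an unadjusted p under 0.05, all of them for Npr3, and DESeq2 called 0 of the 22 for which it gave an adjusted p. Over all genes, edgeR put between 192 of 16023 (T or NK-like) and 493 of 5411 (endothelial) under an unadjusted 0.05 in these classes. The receptors were chosen on Npr3 over all nuclei, a sum that includes these classes. The Npr3 tests are therefore not independent of the choice and are read as a description. By class, the share of all genes called was 0.178% in cluster 1, 0.025% in T or NK-like nuclei, 0.0488% in B-like, 0.00696% in secretory luminal, 0.0279% in progenitor or fibroblast-like, 0.00924% in cluster 12, 0.0109% in macrophage-like, 0% in hormone-sensing luminal, 0.0252% in interstitial progenitor-like, 0.0716% in dendritic-like and 1.85% in blood endothelial-like nuclei. The Npr3 difference closest to the threshold was in cluster 1, at a log2 difference of 1.33 (SE 0.27, adjusted p = 0.0525 by edgeR), with 25.3 and 32.5 CPM under WT against 66.5 and 77.7 under PTRF KO. Leaving out WT 1, WT 2, PTRF KO 1 or PTRF KO 2 gave log2 differences of 1.21, 1.57, 1.48 and 1.23. Npr3 in endothelial nuclei had a log2 difference of 1.09 (SE 0.50, adjusted p = 0.481 by edgeR), and in secretory luminal nuclei one of 2.44 (SE 0.61, adjusted p = 1 by edgeR). The 9 classes tested for Npr3 all had log2 differences above 0, from 0.93 in macrophages to 3.07 in cluster 12. Macrophage-like nuclei stood at 3.69, 29.8, 26.8 and 27.9 CPM, so the labels overlapped there. Leaving out a library gave 2.63 to 7.93 in cluster 12, the highest against a WT library with no UMI. In secretory luminal nuclei it gave 1.59 to 2.93.

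Adipocyte RNA was present in these other classes. By the sum of the 12 adipocyte markers PTRF KO 2 had the most of it in 10 of the 11, endothelium being the exception. In T or NK-like nuclei the 12 adipocyte markers summed to 1492, 702, 1489 and 3005 CPM, and there were 48.8, 110, 118 and 92.5 Npr3 UMIs for each 100 Adipoq UMIs, against 18.5, 71.3, 98.6 and 85.1 in adipocytes of the same libraries. B-like nuclei gave 63.2, 75, 83.3 and 66.1, and secretory luminal nuclei 38.1, 100, 139 and 97.7, on 8, 5, 32 and 127 Npr3 UMIs. Endothelial nuclei gave 200, 133, 125 and 100, on 18, 4, 15 and 51 Npr3 UMIs and only 9, 3, 12 and 51 Adipoq UMIs. By this measure they were above adipocytes in each of the 4 libraries. For each 1000 UMIs of the 12 adipocyte markers, adipocytes held 1.20, 4.67, 11.2 and 9.21 Npr3 UMIs. Endothelial nuclei held 6.99, 5.56, 9.01 and 11.2, below adipocytes in PTRF KO 1. The 12 adipocyte markers summed to 7527, 4999, 10186 and 8568 CPM in this class, more than in any of the other 10 compared classes outside adipocytes in each library. Adipoq alone did not show that lead in each library. It stood at 26.3, 20.8, 73.5 and 96.2 CPM in endothelial nuclei and at 29.8, 26.0, 61.1 and 107 in cluster 1. The endothelial class includes the sub-cluster with adipocyte markers described above. The part of adipocyte RNA in the Npr3 differences of these classes was not tested.

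For the cyclase receptors edgeR called none of the 16 tests outside adipocytes, and 0 had an unadjusted p under 0.05. Npr1 differed by a log2 of -0.28 (SE 0.40) in interstitial progenitors, -0.31 (SE 0.50) in endothelium and -0.06 (SE 0.38) in progenitors. Its largest differences outside adipocytes were -0.89 in T or NK-like nuclei (SE 0.72, adjusted p = 1 by edgeR) and -0.89 in dendritic-like nuclei (SE 0.60, adjusted p = 0.816 by edgeR). Leaving out each library gave -1.10 to -0.70 in T or NK-like nuclei. In dendritic-like nuclei WT 1 alone stood at 70.3 CPM and the other libraries at 27.0, 12.5 and 39.2, and without WT 1 the difference was -0.09. Leaving out each library gave -2.09 to -0.09 for Npr1 there. Tested Npr2 differences ran from -0.67 (SE 0.60) in interstitial progenitors to 0.63 (SE 0.64) in endothelium. In dendritic-like nuclei Npr2 did not pass the filter on low counts and was not tested. It stood at 8.04, 8.99, 24.9 and 20.9 CPM there, on only 8, 3, 4 and 8 UMIs. The larger of these standard errors, 0.60 to 0.72, leave room for differences well above 1 in size on the log2 scale, in either direction.

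**Figure D4:**
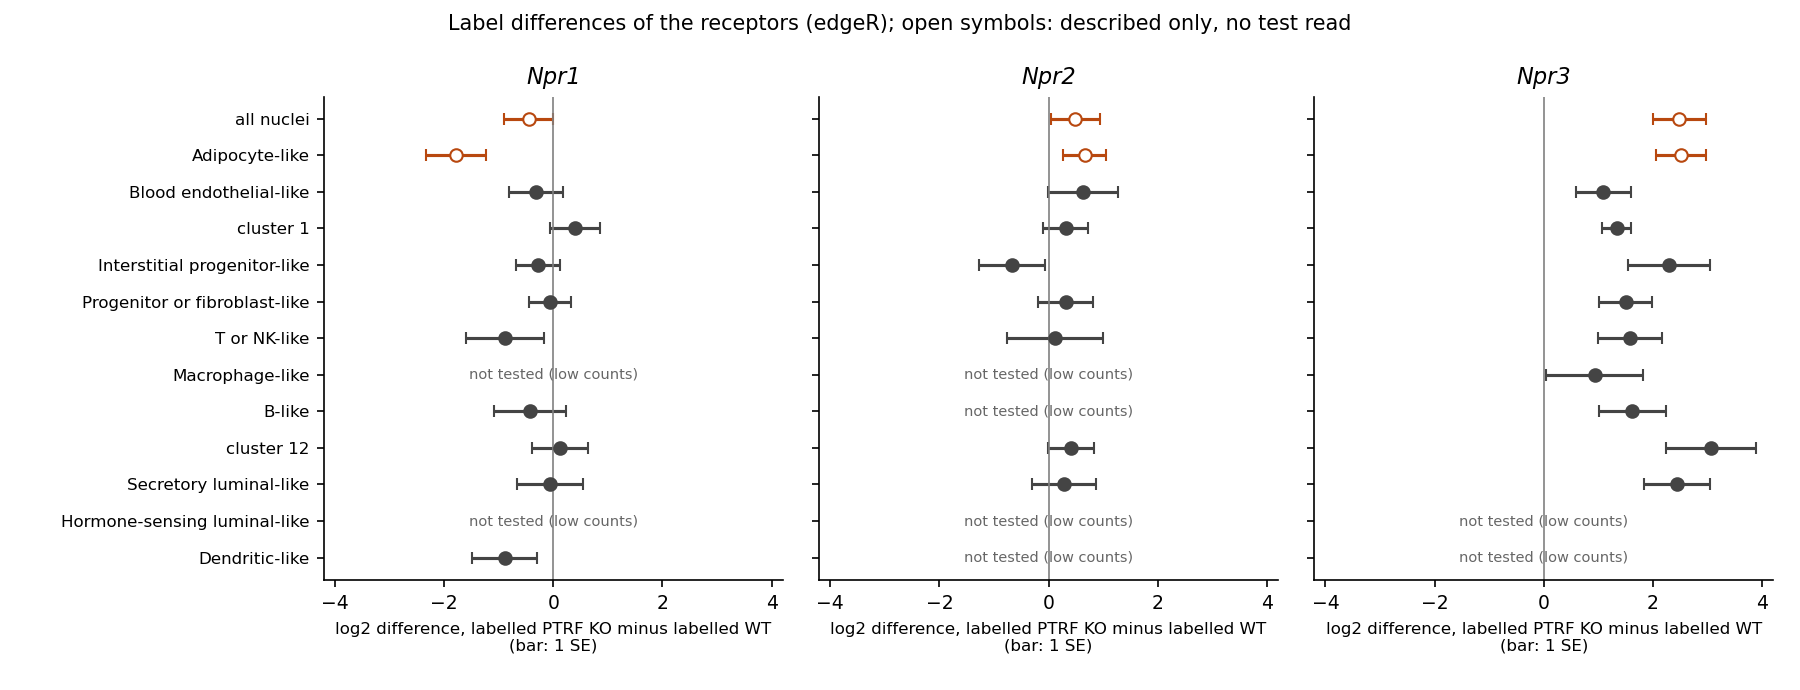
Log2 difference of each receptor, libraries labelled PTRF KO minus labelled WT, with a bar of 1 SE, over all nuclei and in the 12 classes. Npr3 lies right of 0 in every class tested, from 0.93 in macrophages to 3.07 in cluster 12, and the open symbols of all nuclei and adipocytes are described without a test.

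The pathway around the receptors was read from a list of 39 genes by role. The peptides themselves were hardly seen: Nppa, Nppb and Nppc, which encode the atrial, B-type and C-type peptides, had 21, 9 and 36 UMIs over all nuclei, and Ostn, whose product musclin binds the clearance receptor, had 286. Among genes that process or break down peptides, Corin, which encodes the protease that activates the atrial peptide, was highest in cluster 1 (56.5 ± 8.91 CPM). Mme, which encodes neprilysin, a protease that degrades the peptides, was highest in cluster 12 (629 ± 96.4), with adipocytes at 130.4. The soluble guanylyl cyclase subunits Gucy1a1 and Gucy1b1, which answer to nitric oxide, were highest in endothelial nuclei (171 ± 64.0 and 121 ± 20.1), a class that held pericytes, and Gucy1a2 in progenitors (648 ± 202). Prkg1, which encodes the main cyclic GMP-dependent kinase, was highest in cluster 12 at 6322 ± 838 CPM and stood at 106 in adipocytes. Its substrate gene Mrvi1, also named Irag1, was highest there too (204 ± 33.3).

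Adipocytes were the highest class for Pde3b, the phosphodiesterase through which insulin restrains lipolysis (4012 ± 1329 CPM), and for Pde1a (670 ± 155), a calcium-activated phosphodiesterase that takes cyclic GMP. They were also highest for Gnai1, an inhibitory G protein subunit of the kind Npr3 can use (164 ± 38.9), for Lipe, the hormone-sensitive lipase phosphorylated by the kinase (1113 ± 111), and for Adrb3, the β-adrenergic receptor that runs parallel to Npr1 in lipolysis (535 ± 371). Pde9a, a phosphodiesterase specific for cyclic GMP, was highest in secretory luminal nuclei (175 ± 22.8), and Pde5a in hormone-sensing luminal nuclei (65.2 ± 21.7). Pde2a is listed at 0 in every library, and no level is read from it. Abcc5, a cyclic GMP exporter, had its highest mean in interstitial progenitors (151 ± 43.9). Progenitors at 143, macrophage-like nuclei at 131 and endothelium at 114 were within that spread.

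**Figure D5:**
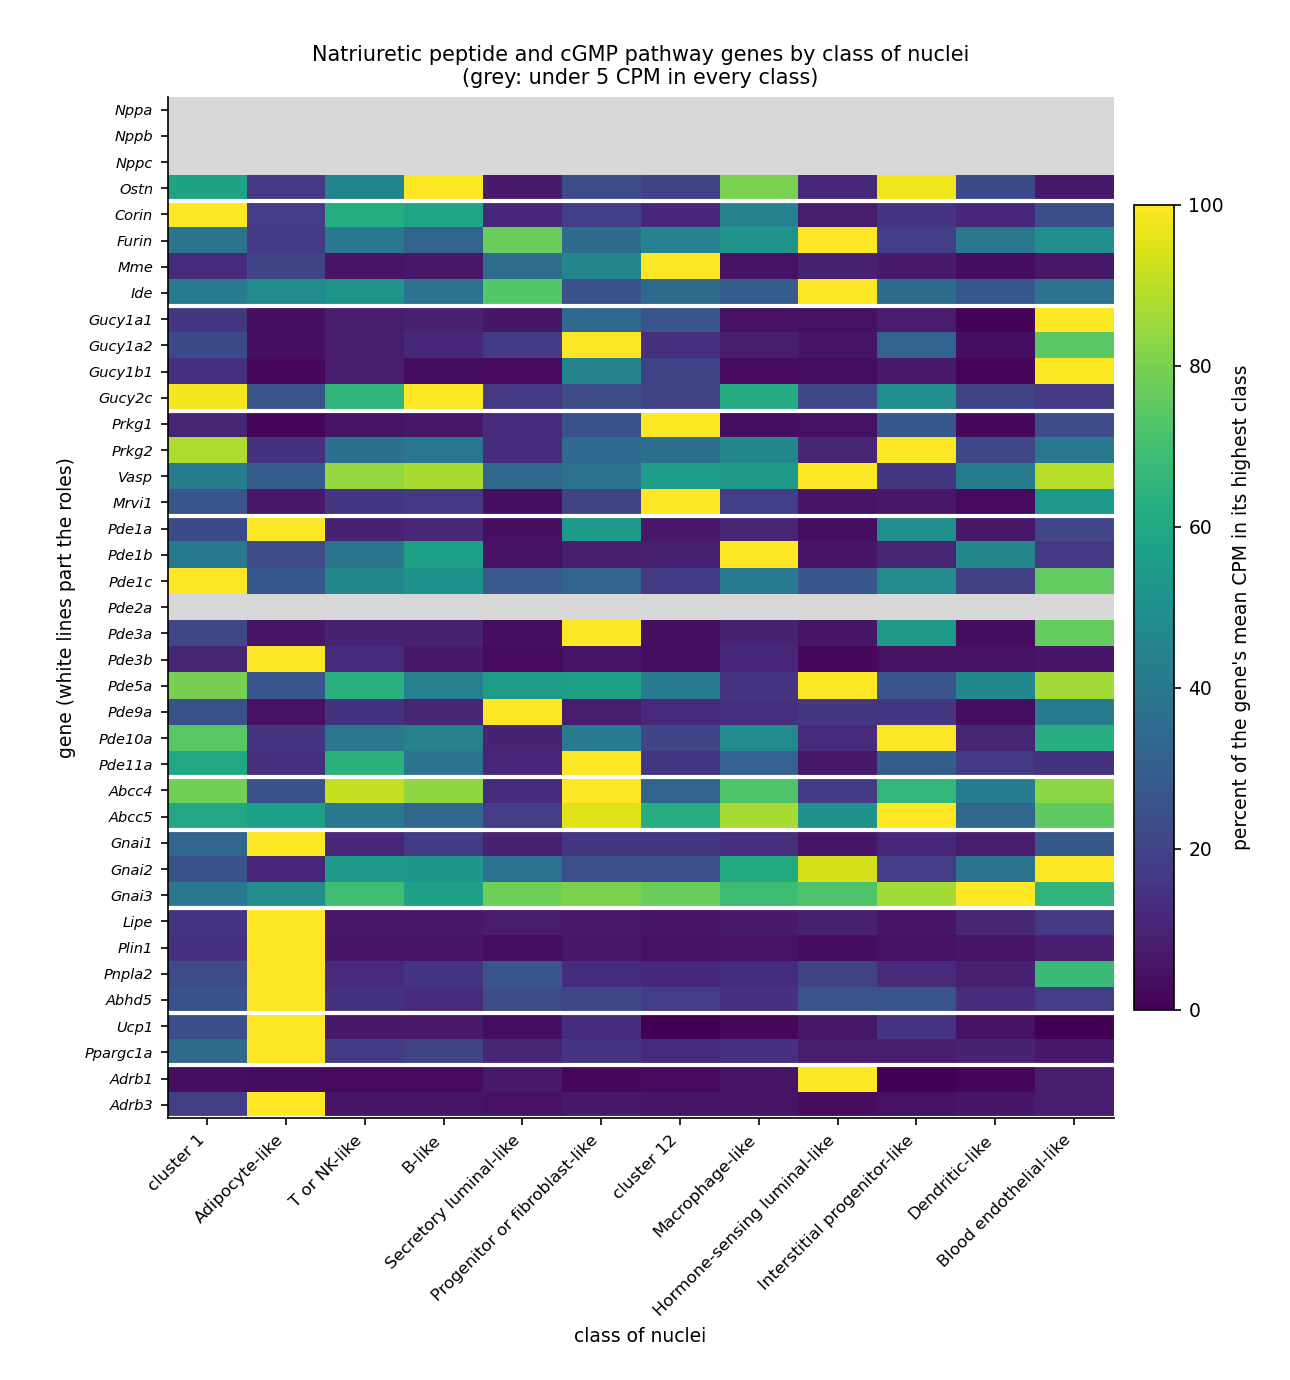
Mean CPM over 4 libraries of the 39 pathway genes (rows, parted by role) in the 12 classes (columns), as a percent of each gene's highest class, so colours compare classes and not genes; grey rows reached under 5 CPM in every class. Adipocytes hold the top of Pde3b, Pde1a, Gnai1, Lipe and Adrb3, and cluster 12 that of Mme, Prkg1 and Mrvi1.

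Few of these pathway genes were called between the labels, and with 2 libraries per label a gene that is not called may still differ. By class, the median log2 difference of the list ran from -0.10 in interstitial progenitors (23 tested) to 0.75 in dendritic-like nuclei (14 tested). Over all genes the medians of these classes were -0.02 and -0.01. In adipocytes 35 of the 39 could be tested with edgeR, of which 1 was called, higher, beside 0.14% of all genes; the median log2 difference of the list was 0.10 against 0.02 over all genes. Adrb3 was higher under PTRF KO, with 1468, 295, 2347 and 8836 UMIs and a log2 difference of 1.97 (SE 0.47, adjusted p = 0.0369 by edgeR); the call was lost without WT 1 (2.26) or WT 2 (1.72, adjusted p = 1 for each), without the filter on low counts (2.01, adjusted p = 0.154) and with the marker gate (1.48, adjusted p = 0.278). Over all nuclei 35 were tested and only Adrb3 was called, higher (0.0712% of all genes were), at 2.12 (SE 0.51, adjusted p = 0.0327 by edgeR), and leaving out any of the 4 libraries ended that call, as did omitting the filter or taking deeper nuclei.

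In cluster 1, 34 pathway genes were tested and 2 were called higher, beside 0.141% of all genes. Plin1, which encodes the lipid droplet coat protein perilipin 1, differed by 1.97 (SE 0.27, adjusted p = 0.00179 by edgeR) and Adrb3 by 1.93 (SE 0.25, adjusted p = 8.98e-04), and Adipoq by 1.66 (SE 0.31, adjusted p = 0.0248). All 3 are adipocyte genes, and the 12 adipocyte markers summed to 3044, 1520, 4172 and 7080 CPM in this cluster; their part in its differences, Npr3 included, was not tested. Endothelial nuclei had 23 tested and 1 lower, Pde1c, beside 1.42% of all genes, at -1.90 (SE 0.43, adjusted p = 0.0115 by edgeR) on 81, 23, 6 and 35 UMIs, a call lost without WT 1 (-1.60, adjusted p = 0.312), without the filter on low counts (-1.84, adjusted p = 0.287) and with DESeq2 (adjusted p = 0.0607). In the other 9 classes edgeR called 0 of 246 tests of a pathway gene, with 27 at an unadjusted p under 0.05. Over all genes, edgeR put between 192 of 16023 (T or NK-like) and 380 of 5587 (dendritic-like) under that value in these classes. DESeq2 called 2, both in secretory luminal nuclei, where it called 18 of all 14369 genes. They were Adrb3 (2.56, adjusted p = 0.0385 by DESeq2) and Mme (-1.36, adjusted p = 0.0492 by DESeq2). Prkg1, Lipe, Pde3b and Gnai1 in adipocytes had log2 differences of 0.27 (SE 0.39), 0.10 (SE 0.50), -0.51 (SE 0.60) and 0.45 (SE 0.40), none of them called. Of these only Gnai1 had labels that did not overlap, at 150, 127, 163 and 218 CPM. That is also true of 24.5% of the 17863 genes tested in adipocytes, and nothing is read from it.

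Across the 48 sums of 12 classes in 4 libraries, the 5 genes most like each receptor were ranked by Pearson's r on log2(CPM + 1) among 17428 genes; the points share libraries and depth, so r is a description. For Npr3 these were Pnpla3 and G0s2, a lipid droplet enzyme and an inhibitor of the lipase Pnpla2, Tshr, the thyrotropin receptor, Trhde, which breaks down thyrotropin-releasing hormone, and Gnai1, with r from 0.80 to 0.83, each highest in adipocytes. For Npr1 they were Plat, which encodes tissue plasminogen activator (r = 0.82), Dcbld2, Fbn1, which encodes fibrillin 1, Tek, the angiopoietin receptor, and Jcad, the first 4 highest in interstitial progenitors and Jcad in endothelium. For Npr2 they were Lims2, Trpc1, Msrb3, Tshz2 and Arhgap29 (r from 0.73 to 0.75), highest in interstitial progenitors, progenitors, cluster 12, cluster 12 and endothelium. Between receptors, r was 0.54 for Npr1 with Npr2, 0.44 for Npr2 with Npr3 and 0.12 for Npr1 with Npr3.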

How the data were processed

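Each of the 4 libraries was deposited as a table of UMI counts, not normalized, with a row per gene and a column per barcode. Per the submitters' processing notes, GRCm38 (mm10) and Seurat 4.3.0 were used by the authors, and the sources used here name no aligner. The lowest barcode total in the files is 500. Barcodes were kept with at least 500 UMIs, 300 genes and at most 10% mitochondrial UMIs. Scrublet called 3 doublets in all, too few to have worked, so doublets remain. Nuclei were clustered with scanpy 1.11.5 (2000 variable genes without the receptors, 30 principal components, 15 neighbours, Leiden resolution 1). A cluster was named where at least 3 markers of a type were among its 100 leading genes.

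Library sums per class were tested with edgeR 4.0.16 (filterByExpr, TMM, quasi-likelihood, robust, two-sided) with Benjamini-Hochberg adjustment over all genes tested in that class and a threshold of 0.05. The text names the receptors, every pathway gene past the threshold, and the 5 genes most like each receptor with at least 10 CPM in a class. It also names genes leading their role and, outside that rule, others of the list such as Corin, Pde1a, Pde5a and Pde9a. Among the thermogenic targets Ppargc1a led, highest in adipocytes (169 ± 49.8 CPM). Gnai3 had more UMIs over all nuclei than Gnai1 (6805 against 5304). Adipoq and the 2 genes called by DESeq2 alone were named after their values were seen. One gene of the pathway list is not reported here, and counts are over the other 39. Members and lists were chosen with earlier results of these data known. Tests were tried on simulated data. With 2 libraries against 2, separate mice by their titles, p-values set a label difference against the spread between these libraries. The spread of a gene was estimated partly from other genes. An exact permutation of single values could not go below 0.333. Total counts per library ran from 8623219 to 34819482 UMIs; intervals are at 95% (Poisson for CPM, Wilson for shares) and, like the floor of 3 counts, cover counting error only. Alternatives were DESeq2 1.42.0, no filter, deeper nuclei, a replicate block, a marker gate and leaving out each library. Other samples, sorted cells or protein were not used here.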

Additional observations from a re-analysis of the deposited data

Results flagged for a closer look

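In 5 groups of nuclei too small in at least 1 library to be compared, receptor UMIs were pooled over the 4 libraries; the values given here are above the limit that a count of 0 allows, and intervals are exact Poisson at 95% and cover counting error only. Skeletal muscle-like nuclei, 136 in all, had 17 Npr2 UMIs (104 CPM, 60.4 to 166) and 11 Npr3 UMIs (67.1 CPM, 33.5 to 120.0), with no Npr1 UMI. Of the Npr3 UMIs 10 were from WT 2, without which the level was 8.50 CPM on 1 UMI; without PTRF KO 1, which had 0, it was 138. Plasma-like nuclei had 68 Npr3 UMIs (82.6 CPM, 64.1 to 105), 11 of Npr2 and 9 of Npr1. Cluster 2, which is led by haemoglobin genes, had 34 Npr3 UMIs (130.4 CPM, 90.3 to 182), 6 of Npr1 and 4 of Npr2; 27 of the Npr3 UMIs were from PTRF KO 2, without which the level was 59.2 CPM, and Npr2 was then down to 1 UMI. Alveolar-like nuclei had 32 Npr1, 20 Npr2 and 26 Npr3 UMIs (9.46, 5.92 and 7.69 CPM). Without WT 1, which held most of these nuclei, Npr2 was at 10.4 and Npr3 at 23.4 CPM, and without PTRF KO 2 Npr3 was at 5.03. Cluster 16 had 4, 4 and 6 UMIs of Npr1, Npr2 and Npr3.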

How the results depend on the processing

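Npr3 kept a log2 difference above 0 in each class tested and each alternative that gave a value. The range was 1.72 to 2.98 over all nuclei and 1.80 to 3.27 in adipocytes. Macrophage-like nuclei had only 6 such alternatives, and there WT 2 (29.8 CPM) stood above PTRF KO 1 and PTRF KO 2 (26.8 and 27.9). Plasma-like and skeletal muscle-like nuclei were not tested. Npr3 means under WT and PTRF KO were 150 and 67.5 CPM in plasma-like nuclei, on 5, 2, 8 and 53 UMIs. In skeletal muscle-like nuclei they were 127 and 0, on 1, 10, 0 and 0 UMIs. Of 211 alternatives of the 25 receptor tests outside adipocytes, 11 brought a call, all of Npr3. These were 1.36 in cluster 1 and 2.50 in secretory luminal nuclei without the filter on low counts, 1.31, 1.68 and 1.66 in cluster 1, T or NK-like and B-like nuclei with crossed replicate numbers, and 6 that left out a library. Leaving out each library gave Npr3 1.21 to 1.57 in cluster 1, 1.59 to 2.93 in secretory luminal nuclei and 2.63 to 7.93 in cluster 12, the last against a library with 0 UMIs and so no bound. Over all nuclei it gave -0.93 to -0.12 for Npr1 and 0.38 to 0.55 for Npr2. It turned the sign of differences that no test had called: Npr1 ran from -0.10 to 0.78 in cluster 1, -0.94 to 0.073 in B-like, -0.41 to 0.40 in secretory luminal, -0.31 to 0.16 in progenitor and -0.76 to 0.71 in cluster 12 nuclei, and Npr2 from -0.17 to 0.63 in cluster 1, -0.57 to 0.88 in T or NK-like, -0.24 to 0.61 in secretory luminal and -0.0088 to 0.54 in progenitor nuclei. With nuclei of at least 1000 UMIs and 500 genes Npr1 turned to 0.14 in secretory luminal, 0.12 in progenitor and -0.055 in cluster 12 nuclei, and without the filter to 0.010 in progenitors. In those deeper nuclei the mean CPM of Npr1 was 18 in cluster 1 and 8.80 in B-like nuclei, and that of Npr2 2.90 in B-like nuclei. The adipocyte marker gate gave -0.57 for Npr1, 0.36 for Npr2 and a mean of 17.6 Npr3 UMIs per Npr1 UMI under PTRF KO, against 80.1 by cluster. The cause of these moves was not tested.

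Counts of called genes moved more than the receptors. Over all nuclei the 29 calls became 16 with DESeq2, 3 in deeper nuclei and 5 to 18 with a library left out. In adipocytes the 57 became 8 with the gate and 9 to 178 with a library left out. The labels do not say that equal replicate numbers pair mice, and same-numbered libraries deviated in opposite directions, with a correlation of -0.61 over all nuclei, -0.40 in adipocytes and under -0.1 in 12 of 13 comparisons. A replicate block left 4 calls over all nuclei and 17 in adipocytes, without Adrb3 in either (2.16 and 1.98, adjusted p = 1 and 0.788 by edgeR), and crossed numbers, chosen after seeing the data, gave 39 and 293. Over all alternatives the counts ran from 15 to 204 in cluster 1 (34 in the reported fit), 0 to 99 in T or NK-like (4), 0 to 166 in B-like (7), 2 to 208 in secretory luminal (1), 1 to 62 in progenitor (3), 1 to 77 in cluster 12 (1), 1 to 31 in macrophage-like (1), 0 to 455 in hormone-sensing luminal (0), 0 to 52 in interstitial progenitor (2), 1 to 58 in dendritic-like (4) and 26 to 162 in endothelial nuclei (100). Limits are the 2 libraries per label, the 13 and 43 Npr1 UMIs in adipocytes labelled PTRF KO, and the 87 interstitial progenitor nuclei of PTRF KO 1; at this depth Npr1 in adipocytes was not distinguishable from its level in T or NK-like nuclei. Where 1 library is left out, the lone library of its label is assumed to vary like the others.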

Other observations

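Among adipocyte nuclei, a sub-cluster of 131 was led by Ucp1, Dio2 and Cidea, genes of heat-producing fat, and 65 of its nuclei came from WT 2 and 60 from PTRF KO 1. Npr3 stood there at 31.5 CPM in WT 2 and 68.3 in PTRF KO 1, on 4 and 6 UMIs, and the other 9 of its 19 UMIs came from 4 nuclei of PTRF KO 2. All 5 of its Npr1 UMIs were in WT 2, and its 3 Npr2 UMIs in PTRF KO 1. Another sub-cluster, of 209 nuclei, carried 4 T or NK and 3 B markers among its leading genes beside adipocyte RNA, and had Npr3 at 33.8, 34.1, 125 and 317 CPM in WT 1, WT 2, PTRF KO 1 and PTRF KO 2, with 121 of 133 UMIs in the last. Doublets were not removed, and their part in this sub-cluster was not tested.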
